A study of Mus musculus with 4 samples.

Results

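The 10 genes described here are Arl14 and 9 relatives from the ARF family of small GTPases: Arl11, Arl4a, Arl4c, Arl4d, Arl5a, Arl5b, Arl6, Arl8b and Arf6. They were picked by gene symbol from the 24391 genes in the deposited counts, and all 10 were found. Arl14 is among them because of its difference between these groups: of 16001 genes tested it had the smallest p, and it was 14th by the size of its fold change. Its difference is therefore a description. Where a tool called it, that call is named only to complete a count and supports nothing. The others were picked to see whether Arl14 was expressed alone or with its family, and 20 further ARF family genes were read for the same purpose.

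RNA was sequenced from 4 mouse lung tumour samples. The 2 samples called K-Ras came from mice with a lox-stop-lox K-Ras allele that carries the G12D mutation once Cre removes the stop. The 2 samples called K-Ras Mll4-/- came from mice with that allele and floxed Mll4 (fl/fl), so both groups share the K-Ras mutation. Neither the promoter that drove Cre, nor the age of the mice, nor whether tumours were pooled is given in the sources used here. The tumours were dissociated and cells bearing CD45, the leukocyte surface antigen, were depleted before RNA extraction.

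Gene-assigned reads numbered between 26683033 and 36677987 per sample. Kmt2d, the gene of Mll4, was at 395 and 526 CPM in the K-Ras samples and 367 and 317 CPM in the K-Ras Mll4-/- samples. Its gene-level counts do not resolve the loss of floxed exons, so the deletion is taken from the labels. All 9 alveolar type 2 markers looked at were expressed, with summed levels of 18653 to 30605 CPM per sample, so each library held transcripts of the lung's surfactant-producing cells. Ptprc, the gene of CD45, was still at 143 to 274 CPM after the depletion. Ciliated cell markers summed to 805 CPM in K-Ras replicate 2 against 143 CPM in K-Ras replicate 1 and 82.2 and 85.6 CPM in the K-Ras Mll4-/- samples. Values of the members and lists in which K-Ras replicate 2 stands apart are therefore also given without it. In bulk RNA, fewer cells of one type and less RNA per cell cannot be told apart.

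ARF family proteins are molecular switches that bind membranes when loaded with GTP and release them after GTP is hydrolysed. Guanine nucleotide exchange factors load them, and GTPase-activating proteins (GAPs) switch them off. The classical ARF proteins build coats and recruit lipid-modifying enzymes at the Golgi and the plasma membrane. The ARF-like (ARL) proteins serve lysosomes, cilia, the trans-Golgi network and the cell cortex. Arl14, also named Arf7, has been described in antigen-presenting cells, where it links vesicles that carry MHC class II to the actin motor Myo1e through its effector Arl14ep. In epithelium it is much less studied.

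The start of the Arl14 gene is shown because Arl14 gave 1 read in each K-Ras sample and 287 and 283 in the others, beside those of Arl11, the other member with few CpG dinucleotides there, and Arl4c, the member with the next largest positive difference. Each window runs from 250 bases before to 50 bases after the annotated start, 5′ to 3′ on the gene's strand, as given by RefSeq for GRCm38.p6. The authors' build was mm9, so these positions do not apply to the authors' alignments. Capitals mark every CG dinucleotide and the TATAAA motif. The windows are chr3:69222169-69222468 (plus strand) for Arl14, chr14:61309503-61309802 (plus strand) for Arl11 and chr1:88702142-88702441 (minus strand) for Arl4c.
Arl14: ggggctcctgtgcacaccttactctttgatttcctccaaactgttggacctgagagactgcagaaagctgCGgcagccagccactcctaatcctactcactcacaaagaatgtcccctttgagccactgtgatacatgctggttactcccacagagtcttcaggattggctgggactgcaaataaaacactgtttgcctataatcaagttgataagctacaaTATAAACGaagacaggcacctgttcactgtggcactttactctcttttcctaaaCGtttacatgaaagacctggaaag
Arl11: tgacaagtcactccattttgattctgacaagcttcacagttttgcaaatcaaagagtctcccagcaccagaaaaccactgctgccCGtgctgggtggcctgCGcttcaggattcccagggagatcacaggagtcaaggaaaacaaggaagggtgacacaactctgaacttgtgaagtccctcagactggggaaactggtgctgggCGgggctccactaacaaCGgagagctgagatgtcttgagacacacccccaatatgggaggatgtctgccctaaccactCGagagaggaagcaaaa
Arl4c: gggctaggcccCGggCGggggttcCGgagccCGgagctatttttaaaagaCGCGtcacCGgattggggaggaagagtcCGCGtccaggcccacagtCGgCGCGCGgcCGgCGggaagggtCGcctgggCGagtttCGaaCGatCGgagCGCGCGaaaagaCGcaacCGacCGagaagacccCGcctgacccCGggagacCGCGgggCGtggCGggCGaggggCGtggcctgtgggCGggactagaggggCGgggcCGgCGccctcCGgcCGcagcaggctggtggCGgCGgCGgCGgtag

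The Arl14 window held 3 CG dinucleotides and the Arl11 window 5. The windows of the 6 other matched members held between 22 and 48, and Arl4c held 44. RefSeq windows were matched for 8 of the 10 members, with Arl8b and Arf6 unmatched. Across all 32851 windows of this length the median was 7 CG dinucleotides, and 31.4% of windows had as few as Arl14 or fewer. The Arl14 window held a TATAAA whose leftmost base lay 28 bases before the start, on the gene's strand. It was the only matched member with this motif on either strand, which 13.6% of all windows held. The motif CCGCCC was found in 6 of the 8 matched members, not in Arl14 or Arl4d, and in 35.7% of all windows on either strand. TGANTCA and CACGTG had no match in the Arl14 window on either strand and occurred in 7.81% and 7.15% of all windows. GGAAGT had none there either, and 23.8% of all windows held it. CCGCCC and CACGTG each contain a CG, so they are not independent of the CG count, and a match describes the sequence only.

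Arl14 was represented by 1 read in each K-Ras sample and by 287 and 283 reads in the K-Ras Mll4-/- samples. As CPM, which are read counts scaled for library size with the TMM factors of edgeR, these were 0.0327 and 0.0277 CPM against 10.9 and 8.78 CPM. The groups did not overlap, and the K-Ras values lay below the 0.083 to 0.114 CPM that 3 reads, taken as the smallest number showing a transcript, would give. An exact Poisson interval (95%) on 1 read reached 0.182 CPM in K-Ras replicate 1 and 0.154 CPM in replicate 2. With reads summed within groups and scaled to depth, the ratio was 325, with an exact 95% interval of 89.6 to 2690. These intervals cover counting error only. The fitted log2 fold change was 8.18 (SE 0.41), a size that depends on how the single K-Ras reads are handled.

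**Figure D1:**
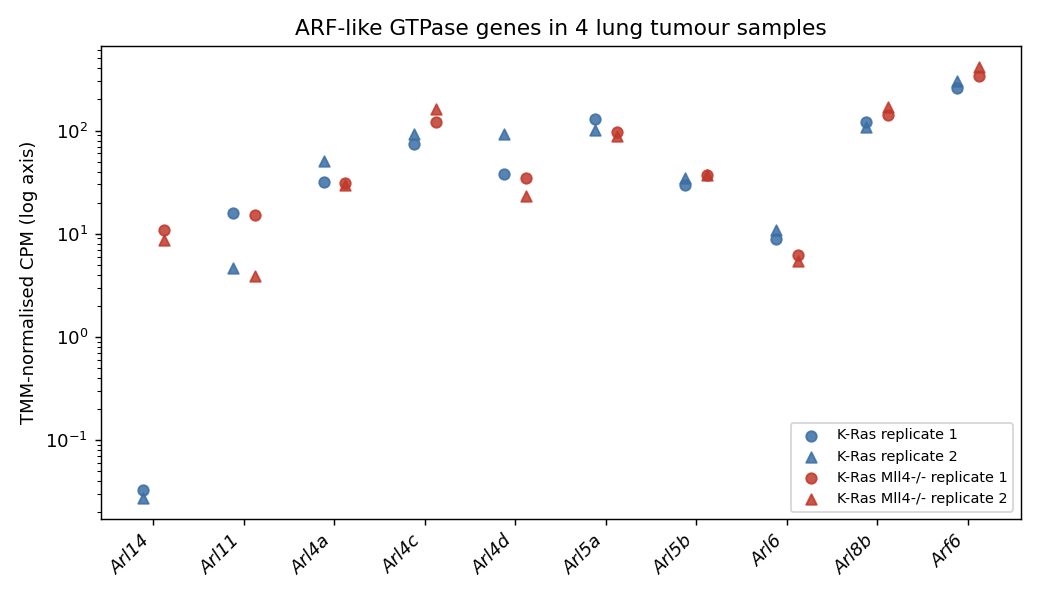
TMM-normalised CPM (log axis) of the 10 genes in each of the 4 samples, with K-Ras in blue and K-Ras Mll4-/- in red, circles for replicate 1 and triangles for replicate 2. Arl14 lies near 0.03 CPM in both K-Ras samples and near 10 CPM in both K-Ras Mll4-/- samples, while the other 9 genes lie between 3.91 and 409 CPM in every sample.

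The level Arl14 reached was moderate for its family. Levels of different genes were compared as CPM per kilobase of the longest GENCODE M21 transcript, which is approximate because the authors' gene models may differ. In the K-Ras group Arl14 was last of the 10 members at 0.0252 CPM per kilobase, and last of all 30 ARF family genes. Its place below Arl9 rests on 1 read per K-Ras sample against 2 for Arl9, too few to order these genes. In the K-Ras Mll4-/- group its mean of 8.21 CPM per kilobase placed it 6th of the 10 and 20th of the 30. There its samples overlapped the next member, Arl4a at 7.75 CPM per kilobase, and did not overlap the one above, Arl5a at 17.9.

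Arf6 was the most abundant member in both groups, at 183 and 243 CPM per kilobase. In the K-Ras group it was followed by Arl4d, Arl8b, Arl5a, Arl4c, Arl4a, Arl6, Arl11 and Arl5b. Within that order, the samples of Arl8b and Arl5a, of Arl5a and Arl4c, of Arl6 and Arl11, and of Arl11 and Arl5b overlapped, so these neighbours did not differ beyond their spread. In the K-Ras Mll4-/- group the order below Arf6 was Arl4c, Arl8b, Arl4d, Arl5a, Arl14, Arl4a, Arl5b, Arl11 and Arl6. There the samples of Arl4c and Arl8b, of Arl4d and Arl5a, of Arl14 and Arl4a, of Arl5b and Arl11, and of Arl11 and Arl6 overlapped.

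Whether the family moved with Arl14 was read from one fit across all 16001 genes that passed the count filter, where an adjusted p below 0.05 made a call. The edgeR quasi-likelihood test called 6 genes, all of them higher, or 0.0375% of those tested. All 10 members passed the filter, and 1 of them was called: Arl14 itself, whose call comes from the contrast it was chosen for. Of the other 9, 0 were called, and 3 had an unadjusted p under 0.05 (Arl4c and Arl8b higher, Arl6 lower), a share to be read against 21.8% of all genes. With single samples left out, the log2 fold change ran from 0.54 to 0.99 for Arl4c, from 0.30 to 0.58 for Arl8b and from -0.91 to -0.64 for Arl6. DESeq2 called 2 of the 10, Arl14 and Arl4c, where it called 10.4% of all genes with an adjusted p, and so did the edgeR likelihood ratio test, which called 9.39% of all genes. A fit blocked on replicate number called 1 of the 10, Arl14, against 1.59% of all genes. With limma-voom 0 were called and 4 had an unadjusted p under 0.05, against 20.2% of all genes. The groups did not overlap for 8 of the other 9 members, 4 higher and 4 lower, against 58.3% of all genes tested. The median log2 fold change of the 9 was -0.13, against -0.01 over all genes, and its sign turned without K-Ras Mll4-/- replicate 2 (0.19) or K-Ras replicate 1 (0.10). Of the 9, 4 had a log2 fold change above 0 and 5 below, also under each other scaling tried, where 48.8% of all genes were above 0. The labels do not say that the replicates came from different mice, so all p-values measure the spread between these samples. An exact permutation test of 2 samples against 2 could not give a two-sided p below 0.333 for any single gene.

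**Figure D2:**
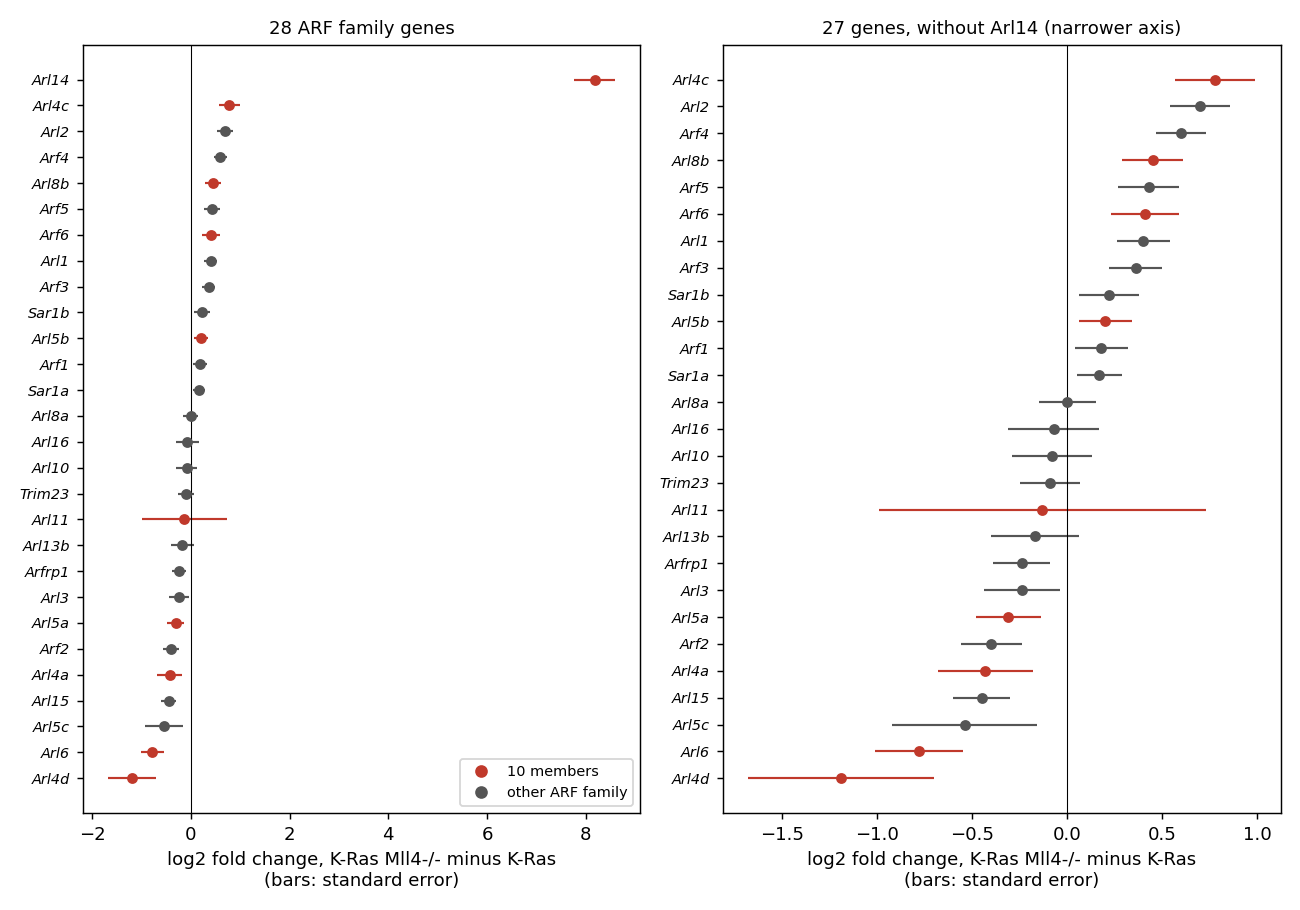
Log2 fold change (K-Ras Mll4-/- minus K-Ras, bars showing the standard error) of the 28 ARF family genes that passed the count filter, on the left with Arl14 and on the right without it on a narrower axis. Red marks the 10 members and grey the other ARF family. Arl14 stands at 8.18, and the other 27 genes lie between -1.19 and 0.78.

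Arl11, a paralogue also known as the tumour suppressor candidate Arlts1 and expressed in macrophages, had 15.1 and 3.91 CPM in the K-Ras Mll4-/- samples and 16.0 and 4.70 CPM in the K-Ras samples. It was high in replicate 1 and low in replicate 2 of both groups, so the groups overlapped almost entirely. Its log2 fold change was -0.13 (SE 0.86, edgeR adjusted p = 0.945), and the SE was the widest of the 28 ARF family genes tested. Of 10 macrophage markers, 7 were likewise higher in both samples numbered 1 than in both numbered 2. Among them, the macrophage receptor gene Adgre1 was at 51.2 and 42.4 CPM in the samples numbered 1 and 17.9 and 14.3 CPM in those numbered 2. The same order held for 5 of 8 T and B lymphocyte markers, so it was not particular to macrophage markers. Its share over all genes is not given here. Summed, the 10 macrophage markers gave 5312 and 3233 CPM in the K-Ras Mll4-/- samples and 5428 and 4539.8 CPM in the K-Ras samples, and none was at 0. Lyz2 alone, which alveolar type 2 cells also express, made up 2822 to 4303 CPM of each sum and did not follow the replicate numbers. The other 9, summed after this was seen, gave 1008 and 1255 CPM in the samples numbered 1 and 412 and 329 CPM in those numbered 2. The part macrophages have in the Arl11 values was not tested. Arl14 was at 10.9 and 8.78 CPM in the K-Ras Mll4-/- samples, where Arl11 was at 15.1 and 3.91 CPM. With 1 read in each K-Ras sample, whether Arl14 followed the replicate numbers in both groups cannot be read.

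**Figure D3:**
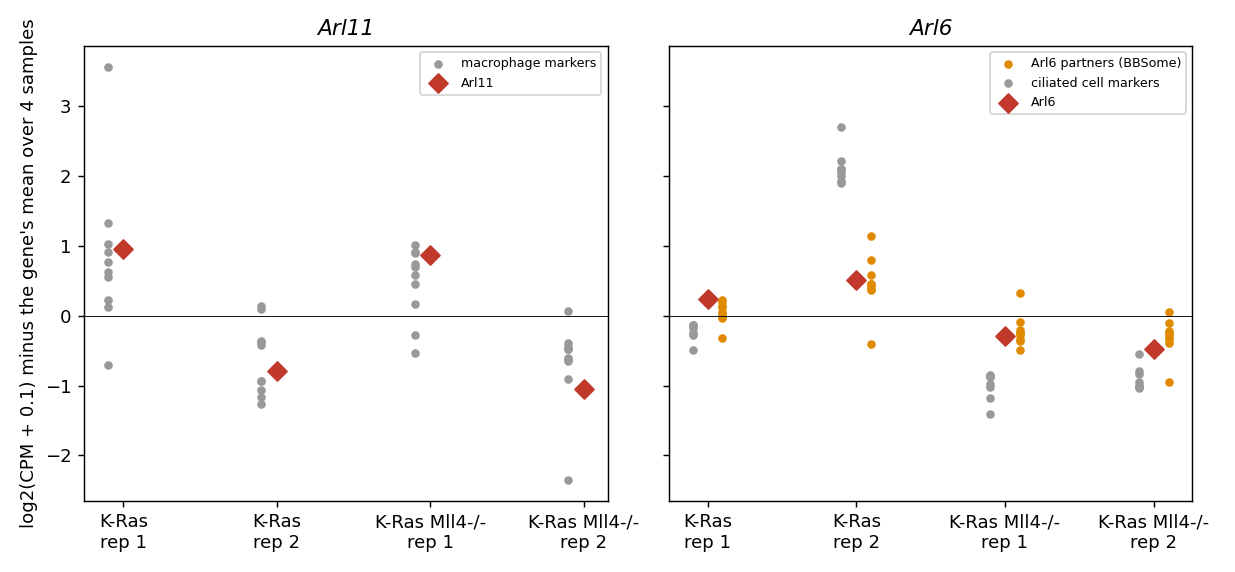
Centred level, log2(CPM + 0.1) minus the gene's mean over the 4 samples, of Arl11 with 10 macrophage markers (left) and of Arl6 with 9 BBSome-related genes and 8 ciliated cell markers (right). Arl11 is above 0 in both samples numbered 1 and below 0 in both numbered 2, and Arl6 is above 0 in both K-Ras samples. The ciliated cell markers are highest in K-Ras replicate 2.

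The Arl4 proteins sit at the plasma membrane and recruit cytohesins, the exchange factors of Arf6. The 3 Arl4 genes did not share a direction. Arl4c was at 121 and 163 CPM in the K-Ras Mll4-/- samples and 74.1 and 91.6 CPM in the K-Ras samples. Both K-Ras Mll4-/- samples were the higher. The difference of 0.78 on the log2 scale (SE 0.21) was not called by the edgeR quasi-likelihood test (adjusted p = 0.175) and was called by DESeq2 (adjusted p = 0.0433).

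Arl4d was at 34.6 and 23.2 CPM in the K-Ras Mll4-/- samples and 38.0 and 93.4 CPM in the K-Ras samples. K-Ras replicate 2 stood apart, and the log2 fold change of -1.19 (SE 0.49; by edgeR, adjusted p = 0.251) came to -0.41 without it. Arl4a showed the same feature, with 31.3 and 29.7 CPM in the K-Ras Mll4-/- samples and 31.9 and 50.4 CPM in the K-Ras samples. Its log2 fold change was -0.43 (SE 0.25, edgeR adjusted p = 0.367), and it was -0.08 without K-Ras replicate 2. Cyth3, a cytohesin, was also highest in that sample, at 359 CPM against 203 CPM in K-Ras replicate 1 and 189 and 162 CPM in the K-Ras Mll4-/- samples, and its log2 fold change of -0.68 came to -0.22 without it. Club cell markers summed to 4753 CPM in K-Ras replicate 2 and to between 721 and 1161 CPM in the other 3 samples, and ciliated cell markers were highest there too. Their part in the Arl4a and Arl4d values was not tested.

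Arf6, which governs recycling endosomes and cortical actin and is the target of the cytohesins, was at 336 and 409 CPM in the K-Ras Mll4-/- samples and 257 and 304 CPM in the K-Ras samples. Both K-Ras Mll4-/- samples were the higher, and the log2 fold change was 0.41 (SE 0.18, edgeR adjusted p = 0.274), or 0.25 without K-Ras Mll4-/- replicate 2. GENCODE M21 places Gm9887 on the opposite strand over exons of Arf6, and the strand setting of the counting is not given in the sources used here. Among 9 genes that act with Arf6, the edgeR quasi-likelihood test called 0. DESeq2 called 2, Ehd1 and Pld1 (10.4% of all genes with an adjusted p), and so did the likelihood ratio test (9.39% of all genes). At an unadjusted p under 0.05, 1 was higher and 2 lower (11.3% and 10.4% of all genes). The median log2 fold change of the 9 was -0.21. It was -0.23 without K-Ras Mll4-/- replicate 1, -0.09 without K-Ras Mll4-/- replicate 2 and -0.24 without K-Ras replicate 1. It came to -0.01 without K-Ras replicate 2 and to -0.01 with offsets for GC content and transcript length. Pld1, a phospholipase D that Arf6 activates, was at 64.4 and 78.7 CPM against 44.0 and 44.6 CPM in K-Ras (log2 fold change 0.69, SE 0.15, edgeR adjusted p = 0.154). Ehd1, an ATPase of endocytic recycling, was at 101 and 93.7 CPM against 144 and 160.2 CPM in K-Ras (log2 fold change -0.64, SE 0.13, edgeR adjusted p = 0.152). The third was Mapk8ip3, a motor scaffold, with a log2 fold change of -0.43 (SE 0.14).

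Arl8b carries lysosomes outward along microtubules by way of the BORC complex and kinesin. It was at 141 and 170.3 CPM in the K-Ras Mll4-/- samples and 121 and 108 CPM in the K-Ras samples. Both K-Ras Mll4-/- samples were the higher (0.45 on the log2 scale with SE 0.16, edgeR adjusted p = 0.215). Its close relative Arl8a did not share this, with means of 41.9 CPM in both groups and a log2 fold change of 0.00 (SE 0.15). Of 12 BORC, adaptor and kinesin genes, 0 had an unadjusted p under 0.05 in either direction, against 21.8% of all genes. The median log2 fold change of the 12 was 0.01. The 3 with the smallest p were Plekhm1 (-0.23, SE 0.12), Bloc1s2 (0.40, SE 0.22) and Kif5b (0.21, SE 0.15).

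The Arl5 proteins recruit the GARP tethering complex to the trans-Golgi network. Arl5a was at 97.8 and 89.4 CPM in the K-Ras Mll4-/- samples and 129.8 and 102 CPM in the K-Ras samples (difference -0.31 on the log2 scale with SE 0.17, edgeR adjusted p = 0.344). Arl5b was at 37.1 and 37.0 CPM in the K-Ras Mll4-/- samples and 29.9 and 34.8 CPM in the K-Ras samples (difference 0.20 on the log2 scale with SE 0.14, edgeR adjusted p = 0.456). Neither pair of groups overlapped, and the signs of these paralogues were opposite. Without K-Ras replicate 1 the differences were -0.12 for Arl5a and 0.10 for Arl5b, and without K-Ras replicate 2 they were -0.48 and 0.30. All 4 GARP subunit genes lay between -0.18 and 0.10, with Vps52 at -0.18 (SE 0.13), Vps51 at -0.16 (SE 0.19) and Vps53 at 0.10 (SE 0.13).

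Arl6, known as the Bardet-Biedl syndrome gene Bbs3, recruits the BBSome, the cargo coat of the primary cilium, to membranes. It had 6.17 and 5.43 CPM in the K-Ras Mll4-/- samples and 8.96 and 10.9 CPM in the K-Ras samples. Both K-Ras Mll4-/- samples were the lower (-0.78 on the log2 scale with SE 0.23, edgeR adjusted p = 0.185), and the difference was -0.64 without K-Ras replicate 2. Of the 9 BBSome-related genes, the edgeR quasi-likelihood test called 0. DESeq2 called 1 (10.4% of all genes with an adjusted p), Bbs1, at -1.35 (-0.76 without K-Ras replicate 2). A negative log2 fold change was seen for 8, and 4 were lower at an unadjusted p under 0.05 (10.4% of all genes). The median was -0.59. It was -0.34 without K-Ras replicate 2, -0.74 without K-Ras replicate 1, and -0.56 and -0.57 without K-Ras Mll4-/- replicates 1 and 2. Bbs7 was at 7.66 and 8.63 CPM in the K-Ras Mll4-/- samples against 12.6 and 16.3 CPM in K-Ras (log2 fold change -0.83, SE 0.22, edgeR adjusted p = 0.175). Bbs9 and Bbs4 followed at -0.61 (SE 0.17) and -0.64 (SE 0.19). All 8 ciliated cell markers were higher in both K-Ras samples than in both K-Ras Mll4-/- samples, as were 28.5% of all genes, with none at 0. Of the 9 BBSome-related genes, 8 were highest in K-Ras replicate 2. So were 7 of 9 alveolar type 2 markers, 5 of 5 club cell markers and 3 of 8 endothelial markers. The part of ciliated cells in the Arl6 values was not tested. A non-coding gene, 4930547E14Rik, overlaps Arl6 exons on the opposite strand and had between 1 and 5 reads per sample.

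The remaining 20 ARF family genes, among them the classical ARF proteins and the Sar1 proteins of the COPII coat, gave 18 that passed the count filter, of which the edgeR quasi-likelihood test called 0. At an unadjusted p under 0.05, 4 were higher and 1 lower, against 11.3% and 10.4% of all genes. The median log2 fold change of the 18 was -0.03. Without K-Ras Mll4-/- replicate 1 the median was 0.08, and without K-Ras Mll4-/- replicate 2 it was -0.10, with 19 genes passing the filter each time. It was 0.02 without K-Ras replicate 1, 0.08 without K-Ras replicate 2 and 0.03 with offsets for GC content and transcript length. Its sign was therefore not stable. Arf4, a Golgi ARF, was at 103 and 112 CPM in the K-Ras Mll4-/- samples and 73.7 and 68.0 CPM in K-Ras (log2 fold change 0.60, SE 0.13, edgeR adjusted p = 0.154). Arl2, a regulator of tubulin folding, was at 22.8 and 25.4 CPM against 15.0 and 14.6 CPM (log2 fold change 0.70, SE 0.16, edgeR adjusted p = 0.155). Arl15 was at 59.9 and 48.6 CPM in the K-Ras Mll4-/- samples against 73.9 CPM in each K-Ras sample (log2 fold change -0.45, SE 0.15). DESeq2 called 4 of the 28 family genes tested, namely Arl14, Arl4c, Arf4 and Arl2, all higher, against 10.4% of all genes with an adjusted p. Arl9 and Arl13a did not pass the filter. Arl9 had 1 read in each K-Ras Mll4-/- sample and 2 in each K-Ras sample, and Arl13a had 2 and 1 reads against 11 and 6. Of the 28 genes tested, the fitted log2 fold changes other than that of Arl14 stayed within -1.19 to 0.78.

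The 3 genes tied to Arl14 itself were present in both groups. Arl14ep, its effector, was at 26 CPM in both K-Ras Mll4-/- samples and at 32.5 and 25.8 CPM in the K-Ras samples (log2 fold change -0.16, SE 0.17, edgeR adjusted p = 0.598). Psd4, an exchange factor that acts on Arl14, was at 43.9 and 43.7 CPM against 55.2 and 32.6 CPM, so the groups overlapped. Myo1e was at 240.3 and 290.2 CPM in the K-Ras Mll4-/- samples and 163 and 177 CPM in the K-Ras samples. Its log2 fold change was 0.64 (SE 0.16, edgeR adjusted p = 0.165). The edgeR tests did not call it, and DESeq2 did (adjusted p = 0.0375).

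The regulators of the family were compared as lists. None of the 14 exchange factor genes tested was called by the edgeR quasi-likelihood test, the likelihood ratio test or DESeq2. At an unadjusted p under 0.05, 1 of them was lower (10.4% of all genes). This was Iqsec2, an Arf6 exchange factor, at 23.8 and 24.0 CPM in the K-Ras Mll4-/- samples against 33.9 and 41.9 CPM in K-Ras (log2 fold change -0.67, SE 0.16). Cyth1 was at -0.43 (SE 0.17) and Cyth3 at -0.68 (SE 0.31). The list's median was -0.18, which turned to 0.03 with offsets for GC content and transcript length. Cyth4 followed the replicate numbers as Arl11 did, at 59.1 and 85.9 CPM in the samples numbered 1 and 29.2 and 23.2 CPM in those numbered 2.

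Of 23 GAP genes, the edgeR quasi-likelihood test called 0, and 20 had a negative log2 fold change. Asap3, Acap3 and Arap3, all lower, were the 3 called by DESeq2, which called 10.4% of all genes with an adjusted p. The likelihood ratio test called them too, and 9.39% of all genes. The groups did not overlap for 16, all lower (28.5% of all genes were lower in this way). At an unadjusted p under 0.05, 8 were lower (10.4% of all genes), or 5 with the GC and length offsets. The median was -0.37, against -0.27 with those offsets and -0.28 without K-Ras Mll4-/- replicate 2. Asap3, a GAP of ARF proteins at focal adhesions, was at 10.7 and 9.40 CPM in the K-Ras Mll4-/- samples against 25.5 and 24.1 CPM in K-Ras (log2 fold change -1.30, SE 0.17, edgeR adjusted p = 0.123). Acap3 was at 34.6 and 34.5 CPM against 58.8 and 53.4 CPM (log2 fold change -0.70, SE 0.13). Arap3, which is abundant in vessels, was at 223 and 177 CPM against 319 and 411 CPM (log2 fold change -0.87, SE 0.21). Endothelial markers summed to 4366 and 3439 CPM in the K-Ras Mll4-/- samples and 6960.3 and 6692 CPM in the K-Ras samples, with 6 of 8 lower without overlap and none at 0, and their part in the GAP values was not tested.

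Arl14 was then placed beside its neighbours on chromosome 3. RefSeq lists Kpna4, Gm22009 and Gm1647 on one side and Gm40070, Ppm1l and Gm17214 on the other, and 3 of these 6 are in the deposited counts. Kpna4, an importin alpha gene, was at 105 and 112 CPM in the K-Ras Mll4-/- samples and 87.9 and 92.0 CPM in the K-Ras samples (log2 fold change 0.27, SE 0.12). Gm1647, a non-coding gene, had 8 and 6 reads against 15 and 12. Ppm1l, a phosphatase gene, was at 12.2 and 11.1 CPM against 8.14 and 13.1 CPM, with overlapping groups (log2 fold change 0.13, SE 0.29). The next counted genes outward, added afterwards, were Trim59 (1.23, SE 0.33), B3galnt1 (-0.88, SE 0.39) and Nmd3 (0.34, SE 0.22). None of these 6 counted genes was called by edgeR, which called 0.0375% of all genes, with adjusted p values from 0.175 to 0.810. Trim59, at 8.45 and 11.4 CPM against 5.20 and 3.29 CPM in K-Ras, had an unadjusted edgeR p of 0.0161. Trim59 and Kpna4 were higher without overlap (29.9% of all genes), and Gm1647 and B3galnt1 were lower without overlap (28.5% of all genes). Around Arl11 on chromosome 14, RefSeq lists Gm17778, Gm19097 and 1700109G14Rik on one side and Gm5461, Ebpl and Gm25716 on the other. Of these, Ebpl was at 0.11 (SE 0.30), and 1700109G14Rik, a non-coding gene on the opposite strand with Arl11 inside one of its introns in GENCODE M21, had 1 read in 1 sample. The other 4 were not analysed here. Kpna3, another importin alpha gene further out and added afterwards, was at 0.35 (SE 0.15).

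**Figure D4:**
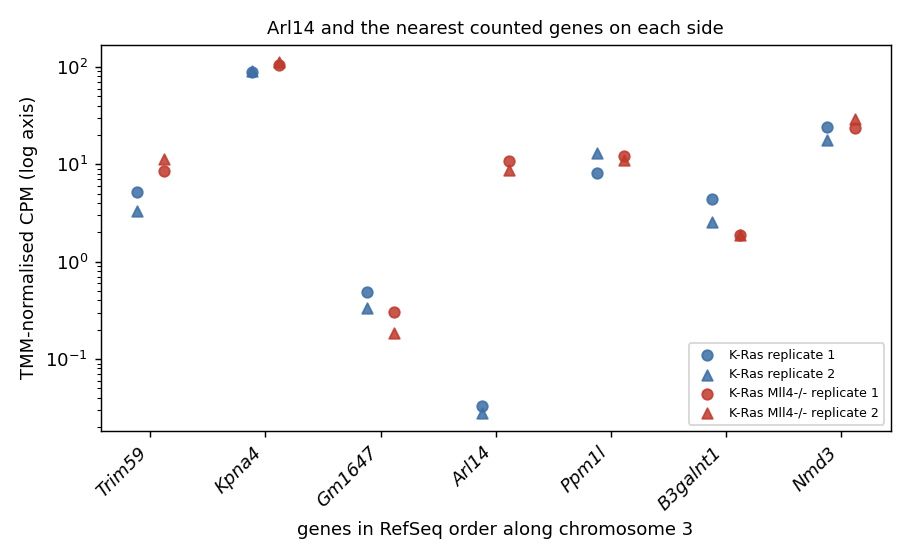
TMM-normalised CPM (log axis) of Arl14 and the 3 nearest counted genes on each side, in RefSeq order along chromosome 3, by sample. Kpna4 and Ppm1l are expressed in all 4 samples, whereas Arl14 is near 0.03 CPM in both K-Ras samples.

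Genes with a sample pattern like that of Arl14 were sought by the Euclidean distance between log2 CPM values (prior count 2) centred on each gene's mean over the 4 samples. The nearest was Gkn2, the gastrokine-2 gene, at a distance of 0.42, with 317 and 384 CPM in the K-Ras Mll4-/- samples against 3.47 and 3.18 CPM in K-Ras. It was followed by Gcnt3, a glycosyltransferase gene (1.00), Dpcr1 (1.08), 2210019I11Rik (1.2) and Onecut2, a transcription factor gene (1.24). Only 4 samples enter this measure, and it ranks genes by the contrast for which Arl14 was chosen. Among 19951 genes with at least 1 read, 6 had at most 3 reads in each K-Ras sample and at least 100 in each K-Ras Mll4-/- sample, and 1 had the opposite pattern. The 6 were Arl14, 2210019I11Rik, Gkn1, Krt14, Pdx1 and Tfap2b, and the opposite one was Eno1b. No other ARF family gene was among them. Markers of gastric-type epithelium summed to 766 and 973 CPM in the K-Ras Mll4-/- samples and to 37.2 and 37.0 CPM in the K-Ras samples. Gkn2 and Ctse, the latter at 374 and 475 CPM, made up most of the K-Ras Mll4-/- sums. Muc6, at 3.01 and 1.05 CPM against 1.99 CPM in each K-Ras sample, overlapped between the groups. So did Muc5ac, at 2.44 and 30.7 CPM against 3.76 and 7.17 CPM. Of the 9 markers, 7 passed the count filter, and 5 of these were higher without overlap (29.9% of all genes were). The 5 include Gkn2, and Gkn1 passed the filter only through its K-Ras Mll4-/- reads, so their number supports nothing. Gkn1 and Tff1 had 0 reads in both K-Ras samples. In the K-Ras Mll4-/- samples Gkn1 had 785 and 254 reads, while Tff1 had only 6 and 2 and did not pass the filter. These markers were listed with the difference in Gkn2 already known, and the part of such cells in the Arl14 reads was not tested.

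**Figure D5:**
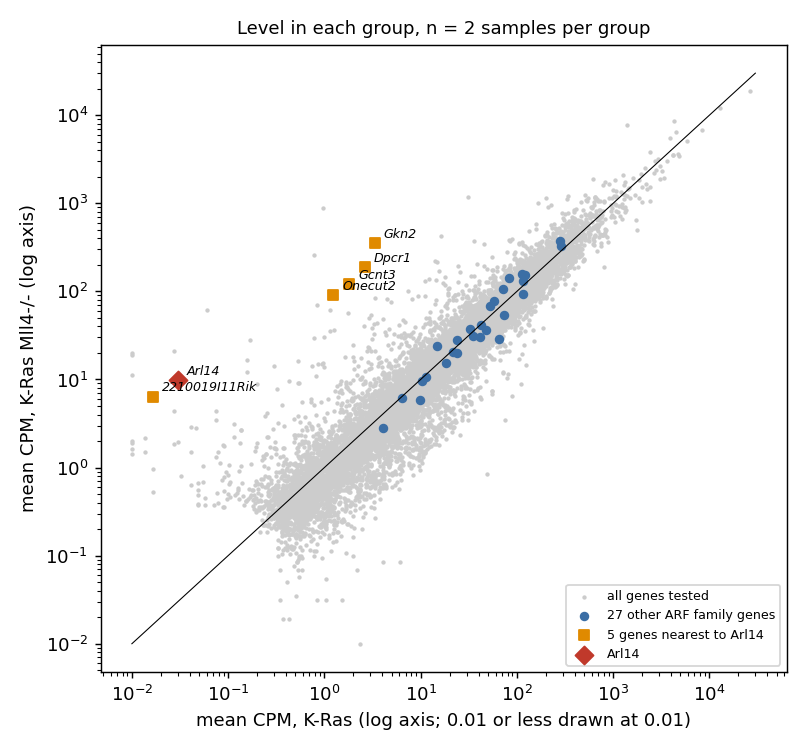
Mean CPM in the K-Ras group (x, log axis) and the K-Ras Mll4-/- group (y, log axis) of all 16001 genes tested, with Arl14, its 27 relatives and the 5 genes of nearest pattern marked and equal levels on the diagonal. The 27 relatives lie along the diagonal, and Arl14 lies far above it at 0.0302 against 9.86 CPM.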

How the data were processed

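RNA-seq counts from 4 samples were analysed. Each deposited file gives whole-number counts of reads by gene symbol, and the submitters' processing notes name CASAVA 1.4, STAR, HTSeq and mm9, with no parameters; the strand setting and the gene annotation are not given in the sources used here. The 5 closing tallies of each file, which name no gene (60.1% to 65.6% of its total), took no part in library sizes or tests. Groups were read from sample titles. With edgeR 4.0.16 in R 4.3.3, genes passing filterByExpr were scaled by TMM and tested with the robust, bias-adjusted quasi-likelihood fit and Benjamini-Hochberg adjustment (called under 0.05). The SE is the log2 fold change divided by the square root of F. Alternatives used DESeq2 1.42.0, limma 3.58.1 and, for GC and length, mgcv 1.9.3. Members and lists were chosen with earlier results of these data known. Besides the members, the text names the 3 genes of smallest p in each list, 3 RefSeq neighbours on each side of Arl14 and Arl11, 5 genes nearest to Arl14 in pattern, and Arl14ep, Myo1e and Psd4. Cyth4, Arl8a and marker genes were named after their values were seen. RefSeq (GRCm38.p6) matched 24271 of 24391 symbols.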

Additional observations from a re-analysis of the deposited data

How the results depend on the processing

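The number of genes called (6) was between 5 and 8 with other scalings, the strict count filter, a non-robust fit, the older quasi-likelihood fit (chosen after seeing the data) and GC and length offsets. It was 10 with no count filter, 1601 with DESeq2 (804 higher, 797 lower), 1503 with the edgeR likelihood ratio test, and 0 with limma-voom, where 3228 had an unadjusted p under 0.05. Leaving out single samples gave 0 to 454. The replicate numbers do not say that samples are paired; across genes, the deviations of samples sharing a number had a correlation of 0.213. The replicate block gave 255 genes called and 1 member, Arl14, and 352 genes with GC and length offsets. The count of members called (1) became 2 with DESeq2 and with the likelihood ratio test, where Arl4c was added, and 0 with limma-voom, with 4 at an unadjusted p under 0.05; it was 0 to 1 when single samples were left out. Arl14 was chosen for this contrast, so its calls describe the settings and lend it no support: 12 of 13 alternatives on all 4 samples called it, and 1 of 4 with a sample left out (that without K-Ras replicate 1), at log2 fold changes of 7.75 to 8.35. Fits with a sample left out also have fewer samples, and the cause of these differences was not tested. Signs reversed for 6 of the 28 genes: Arl11 without K-Ras Mll4-/- replicate 2 (0.54) or K-Ras replicate 1 (1.01), Arl8a with no filter (0.01), GC and length offsets (0.03, and 0.03 with the block) and without K-Ras Mll4-/- replicate 1 (0.11) or K-Ras replicate 2 (0.04), Arl10 with those offsets (0.05 and 0.05) and without K-Ras Mll4-/- replicate 2 (0.05) or K-Ras replicate 2 (0.02), Arl13b without K-Ras replicate 2 (0.13), Arl16 without K-Ras Mll4-/- replicate 1 (0.08) or K-Ras replicate 1 (0.01), and Trim23 without K-Ras replicate 1 (0.03). Over single samples left out, the lowest values of these genes were -1.39 (Arl11), -0.13 (Arl8a), -0.23 (Arl10), -0.42 (Arl13b), -0.24 (Arl16) and -0.21 (Trim23). Depth limits Arl14 in K-Ras tumours, where 1 read per sample does not separate weak expression from none.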
